A study of Mus musculus with 6 samples.

Results

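The collagen genes were taken as every protein-coding gene whose mouse symbol has the form Col, a type number, a and a chain number. By this rule 44 genes were found among the 21474 protein-coding genes and 43346 gene IDs of the count tables. The data were RNA-seq read counts per gene from livers of C57BL6 mice aged 3 months, in 3 DKO libraries and 3 Control libraries. DKO mice lack β-catenin (Ctnnb1) and γ-catenin (Jup) in hepatocytes, so the stellate, endothelial and other liver cells that make most collagens were not targeted, and the study set them against Control mice to ask what this loss does to hepatocytes. The sources used here do not give the Cre driver, the alleles of the Control mice or whether the libraries of a group came from separate animals, so a p-value speaks only of the spread among the 6 libraries.

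The DKO libraries were shallow and poor in liver transcripts. They held 309731, 525037 and 1491237 gene-assigned reads, against 15869639, 13953699 and 12320487 in Control. Ctnnb1 had 0, 52 and 65 reads in DKO replicates 1, 2 and 3, against 2945, 2896 and 2650 in the Control libraries, and Jup had 6, 1 and 11, against 339, 270 and 196. These raw reads are not scaled for depth and do not by themselves measure how far either gene was lost. Albumin, the defining hepatocyte transcript, took 0.0933%, 3.08% and 0.322% of gene reads in DKO, against 6.58% to 7.66% in Control. DKO replicate 3 also stood apart with 62.7% of its gene reads from mitochondrial genes, against 6.27% and 14.4% in the other DKO libraries and 6.34% to 6.57% in Control. Genes silent in Control also received reads in DKO. At the reads per kb of these genes, background was summed over protein-coding genes outside the mitochondrial genome. It came to 45.4%, 19.3% and 16.7% of the gene reads of DKO replicates 1, 2 and 3. The labels are followed here, DKO stands for the libraries so labelled, and whether they hold the labelled livers cannot be told from the counts. In bulk liver, fewer cells of a type and less RNA per cell cannot be told apart.

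Collagens are trimers of chains that wind into a triple helix. Fibrillar types I, III and V form the fibres of the interstitial matrix, type IV forms the network of basement membranes, type VI forms beaded filaments, and the FACIT types (fibril-associated collagens with interrupted triple helices) sit on fibrils. The multiplexins XV and XVIII belong to basement membrane zones, and XVIII carries the fragment endostatin at its end. In liver, hepatocytes are the known main source of collagen XVIII, while stellate cells and portal fibroblasts make most fibrillar collagen, above all in fibrosis.

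To show where the genes with the highest Control levels start, the bases before the RefSeq start are printed for those of the 8 highest whose window was free of annotated exons for at least 200 bases (GRCm38.p6, 5′ to 3′ on the gene's strand). Capitals mark matches on either strand to the TATA element, spelled TATAAA, to the GC box, spelled GGGCGG, and to the CCAAT box, which is named by its letters. Col18a1 lies on the minus strand at chr10:77166549-77166780, Col3a1 on the plus strand at chr1:45311288-45311537, Col27a1 on the plus strand at chr4:63215162-63215411, which is inside the gene as GENCODE draws it, and Col5a3 on the minus strand at chr9:20815068-20815317.
Col18a1: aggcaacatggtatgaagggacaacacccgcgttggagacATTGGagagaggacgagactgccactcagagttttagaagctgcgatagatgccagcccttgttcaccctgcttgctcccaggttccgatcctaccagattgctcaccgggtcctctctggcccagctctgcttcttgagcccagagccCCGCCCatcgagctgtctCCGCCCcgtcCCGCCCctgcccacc
Col3a1: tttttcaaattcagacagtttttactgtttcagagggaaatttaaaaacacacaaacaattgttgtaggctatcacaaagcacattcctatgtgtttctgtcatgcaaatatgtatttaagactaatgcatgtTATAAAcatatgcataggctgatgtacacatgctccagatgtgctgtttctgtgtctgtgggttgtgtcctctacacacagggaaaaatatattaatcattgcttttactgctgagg
Col27a1: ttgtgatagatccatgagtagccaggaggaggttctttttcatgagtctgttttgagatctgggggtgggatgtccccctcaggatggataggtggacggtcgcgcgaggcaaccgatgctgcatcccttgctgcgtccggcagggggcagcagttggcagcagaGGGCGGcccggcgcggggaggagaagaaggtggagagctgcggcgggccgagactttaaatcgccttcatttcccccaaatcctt
Col5a3: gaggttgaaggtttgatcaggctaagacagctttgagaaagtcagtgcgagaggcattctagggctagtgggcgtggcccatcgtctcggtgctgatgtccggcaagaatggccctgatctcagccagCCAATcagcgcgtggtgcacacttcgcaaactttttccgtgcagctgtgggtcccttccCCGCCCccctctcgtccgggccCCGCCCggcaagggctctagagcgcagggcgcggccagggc
The Col18a1 window held 3 GC boxes and 1 CCAAT box, the Col5a3 window 2 GC boxes and 1 CCAAT box, the Col27a1 window 1 GC box, and the Col3a1 window 1 TATA element and no GC box. RefSeq gave windows for 35 of the 44 genes, 38 windows in all. Of these, 5 held TATAAA, 22 a GC box and 13 a CCAAT box, and the shares over all 32851 windows of the same 250 bases were 12.4%, 32.7% and 33.9%. These matches describe letters only. Col18a1 has a second RefSeq start further inside the gene, whose window overlapped annotated exons, and counts per gene do not say which start was used.

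The collagen transcripts of Control liver were mostly Col18a1. Levels are given as FPKM, reads per kb of exon per 1000000 gene-assigned reads. Col18a1 (ENSMUSG00000001435, chr10:77052178-77166548, minus strand, 7021 exonic bases) had 94.0, 85.5 and 81.2 FPKM in Control replicates 1, 2 and 3, a mean of 86.9 ± 6.54 (SD, n = 3). It made up 70.3% ± 2.46 of the summed collagen level and 65.8% ± 2.12 of collagen reads. No other collagen came near it, and its lowest library stood above the highest value of the next gene, 8.36 FPKM. Its partner multiplexin Col15a1 averaged 0.640 ± 0.400 FPKM.

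**Figure D1:**
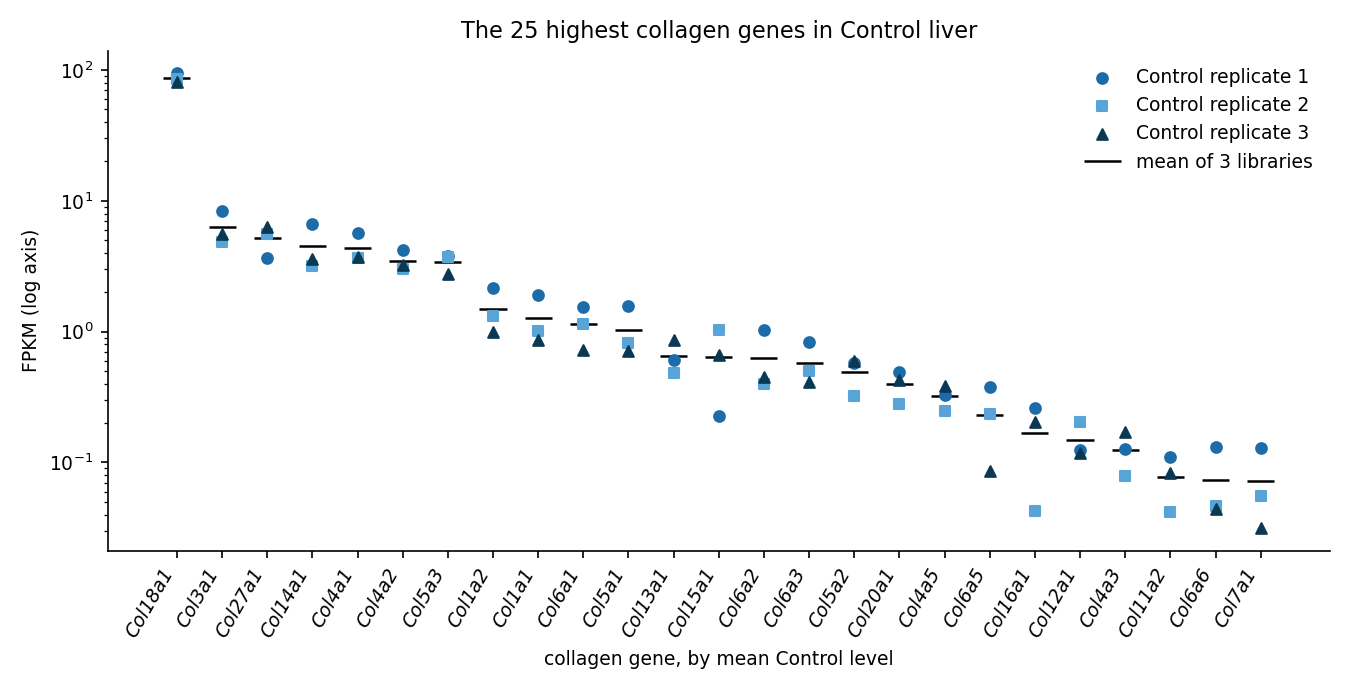
FPKM (log axis) of the 25 collagen genes with the highest mean Control level in each of the 3 Control libraries, with a line at the mean. Col18a1 at 86.9 FPKM stands alone, and most neighbours further down overlap between libraries.

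After Col18a1 came a group of 6 genes between 3.43 and 6.26 FPKM whose neighbours overlapped. Col3a1, the chain of collagen III, averaged 6.26 ± 1.85 FPKM. Col27a1, a fibrillar collagen known best from cartilage, averaged 5.16 ± 1.37 FPKM, and Col14a1, a FACIT collagen of fibril surfaces, 4.48 ± 1.87 FPKM. The basement membrane chains Col4a1 and Col4a2 averaged 4.35 ± 1.12 and 3.48 ± 0.631 FPKM, and the minor fibrillar chain Col5a3 averaged 3.43 ± 0.585 FPKM. The lowest Col5a3 library, at 2.75 FPKM, was above the highest of the next gene, Col1a2, at 2.16 FPKM, and this was the only other break in the order: all later neighbours overlapped in range.

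The collagen I chains were low in Control liver. Col1a2 averaged 1.49 ± 0.598 FPKM and Col1a1 1.26 ± 0.560 FPKM, ahead of Col6a1 at 1.14 ± 0.416 FPKM and Col5a1 at 1.04 ± 0.475 FPKM. In the trimer of collagen I, Col1a1 supplies the larger number of chains, and the Control ratio of Col1a1 to Col1a2 was 0.847 on this scale. It was 0.404 when levels were taken per base of the longest transcript, because the union of Col1a2 exons, 12426 bases, is long. In all, 11 collagens were above 1 FPKM, 11 lay between 0.1 and 1, and 22 were at or below 0.1. Col22a1 and Col28a1 had no read in any Control library. The 8 highest genes held 93.3% ± 0.896 of the summed level.

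By class, fibrillar chains held 15.5% ± 0.470 of the Control level, collagen IV 6.67% ± 0.750, FACIT chains 4.17% ± 1.14, collagen VI 2.09% ± 0.669 and the transmembrane collagens 0.568% ± 0.198. The short-chain network collagens VIII and X, known from endothelium and growth plate, held 0.0756% ± 0.0526. The 3 pairs of collagen IV genes are each arranged head to head. Col4a1 and Col4a2 start 21 bases apart on chromosome 8, and their level ratio was 1.25, with 1.35, 1.23 and 1.15 in Control replicates 1, 2 and 3. Col4a3 and Col4a4, the chains of kidney and lung basement membranes, start 72 bases apart on chromosome 1 and had a ratio of 3.22. Col4a5 and Col4a6 start 1309 bases apart on chromosome X and had a ratio of 40.5, with Col4a6 at 3, 0 and 0 reads. The strand setting of the counting is not given, and the first exons of Col4a1 and Col4a2 share 22 bases.

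Collagens varied together between the Control libraries, a pattern seen in the values and given here as a description. Of the 16 collagens with over 100 Control counts, 12 (75.0%) were highest in Control replicate 1, against 46.5% of the 10900 genes at that depth. The median ratio of Control replicate 1 to the mean of replicates 2 and 3 was 1.56 for these collagens and 1.05 for all genes. Col6a2, a chain of collagen VI, had the highest ratio at 2.44, followed by Col5a1 at 2.07 and Col1a1 at 2.02. Col18a1 moved little, with a ratio of 1.13. The 4 exceptions were Col27a1 at 0.613, Col15a1 at 0.270, Col13a1 at 0.895 and Col5a2, which was highest in replicate 3. Markers of stellate cells (9 of 9, median ratio 1.60) and of sinusoidal endothelium (7 of 7, median 1.84) were all highest in Control replicate 1, as were both bile duct markers at that depth (median 1.85). Kupffer cell markers were highest there in 5 of 6 (median 1.36), hepatocyte markers in 5 of 7 (median 1.12) and portal fibroblast markers in 1 of 2 (median 1.66). The part of these cell types in the collagen spread was not tested.

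**Figure D2:**
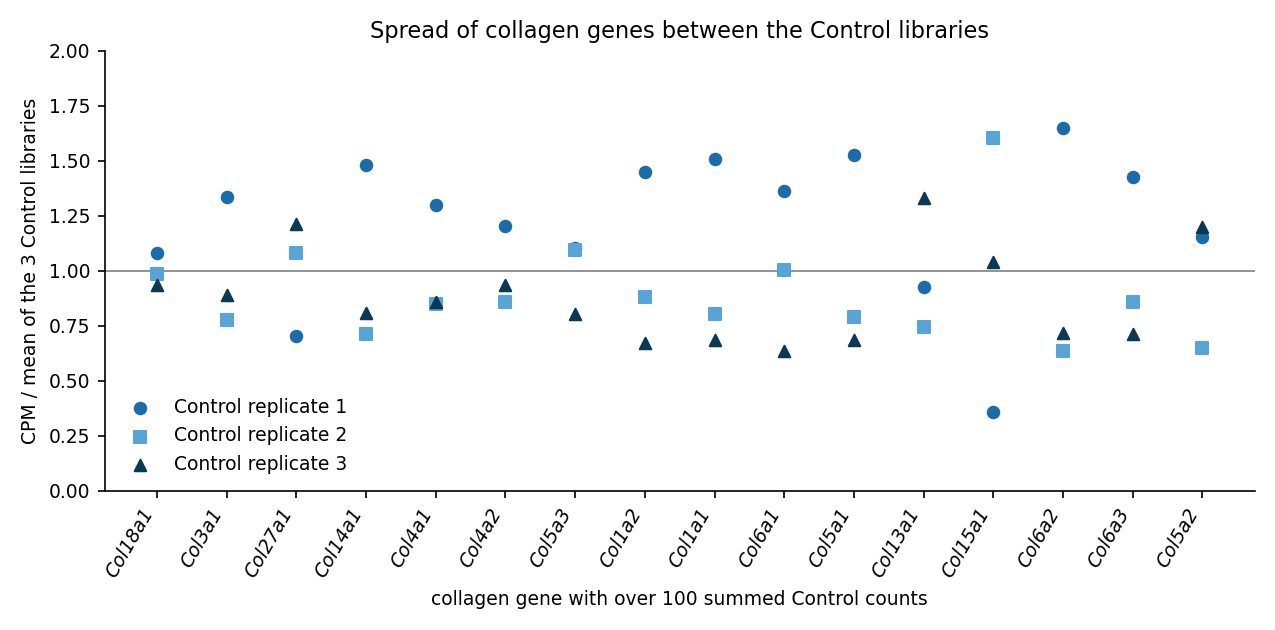
CPM of the 16 collagens with over 100 Control counts, divided by the mean of the 3 Control libraries, with genes ordered by level. Control replicate 1 lies on top for 12 genes and lowest for Col27a1 and Col15a1.

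In DKO the dominance of Col18a1 was lost or reduced in every library, to unequal degrees. It had 1, 161 and 72 reads in DKO replicates 1, 2 and 3, against 10479, 8381 and 7023 in Control. As a share of collagen reads this was 0.113% (Wilson 95% interval 0.0199% to 0.636%), 29.3% (25.7% to 33.3%) and 5.06% (4.03% to 6.32%) in DKO, against 63.6%, 67.8% and 66.1% in Control. The shares of the groups did not overlap, and DKO replicate 1, with the least albumin, had the lowest.

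The edgeR quasi-likelihood test put Col18a1 at a log2 fold change of -2.69 (DKO over Control, SE 1.47, n = 3 each), and at an adjusted p of 0.154 the difference did not pass the threshold. It passed as lower with DESeq2 (adjusted p = 0.0221), and in edgeR without a filter (adjusted p = 0.013) and without DKO replicate 1 (0.0338) or DKO replicate 2 (0.046). It did not pass with limma-voom (adjusted p = 0.184). Nor did it pass in edgeR with a replicate block (adjusted p = 0.115) or with background subtracted (0.397). Its reads were also set against an expectation made of background plus the Control mean times the library's scale for abundant liver transcripts, taken from 163 genes that do not include it. This gave 15.3, 173 and 69.6 reads for DKO replicates 1, 2 and 3, of which background was 11.3, 10.1 and 22.2. The observed 161 and 72 reads of replicates 2 and 3 lay close to that sum, and the 1 read of replicate 1 lay below the background alone. On the scale of abundant liver transcripts the log2 fold change of Col18a1 was -0.056 (edgeR, adjusted p = 0.977). The median over all tested genes on that scale was 4.68.

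**Figure D3:**
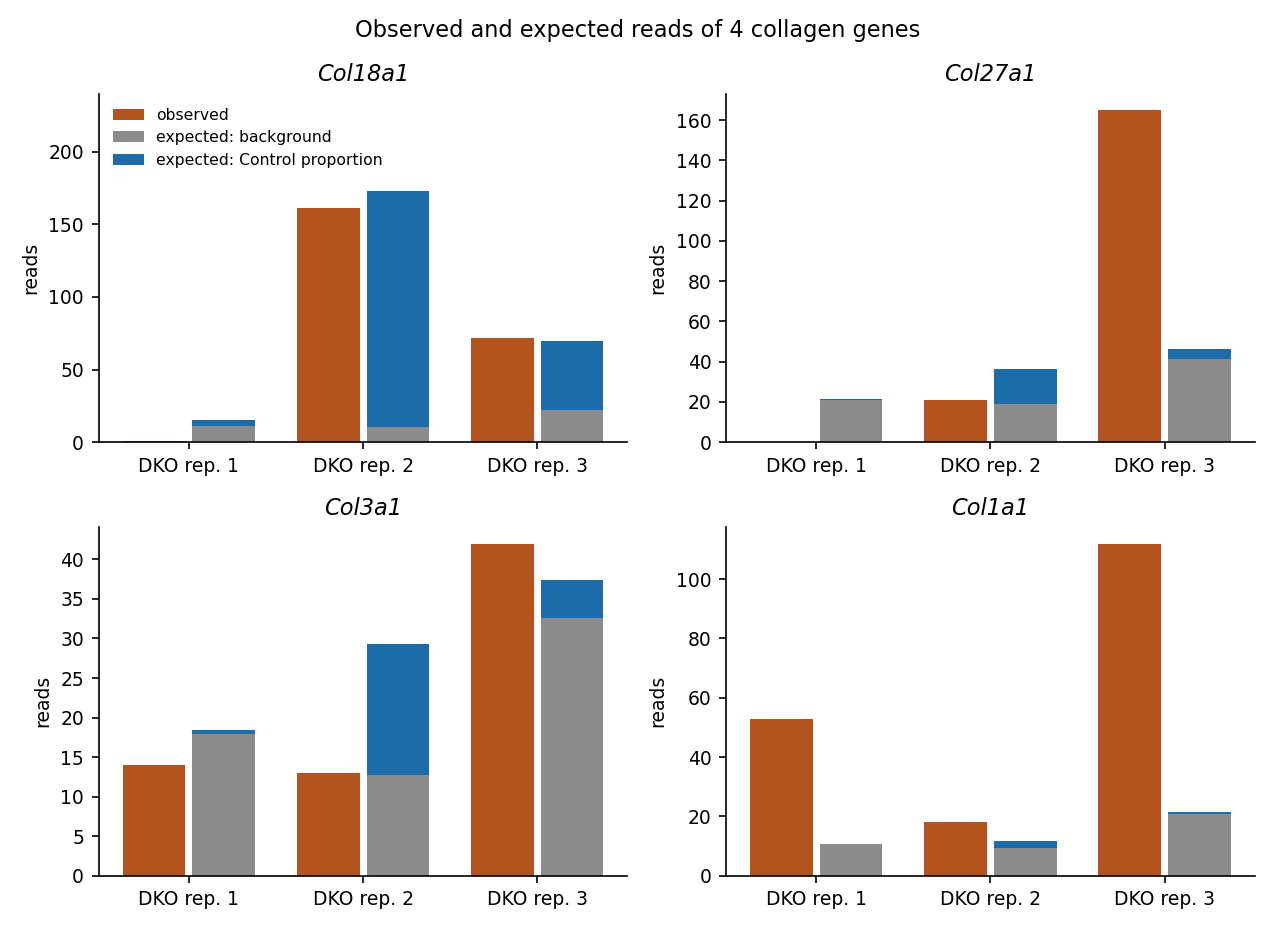
Reads of 4 collagen genes in each DKO library (left bars) beside the reads expected from background and from the Control proportion (stacked right bars). Col18a1 is near its expectation in DKO replicates 2 and 3, Col27a1 exceeds it in replicate 3 with 165 reads, and Col1a1 exceeds it in all 3.

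The collagen reads of DKO were set against the background of each library. Summed over the 44 genes, there were 887, 549 and 1424 reads in DKO replicates 1, 2 and 3, against 16475, 12359 and 10623 in Control, which is 0.286%, 0.105% and 0.0955% of gene reads in DKO and 0.0862% to 0.104% in Control. The reads per kb of 8583 other protein-coding genes that had no more than 10 Control counts in sum, matched on GC content and multiplied by exonic length, gave 595, 470 and 1125 expected background reads. Observed over expected was therefore 1.49, 1.17 and 1.27. Without Col18a1 it was 1.52, 0.844 and 1.23. With 1 rate for all silent genes the ratio was 1.91, 1.63 and 1.71, and with a median-based rate it was 5.51 in DKO replicate 3, so its size depends on how background is estimated. The Control proportions would have added 6.12, 248 and 72.3 reads.

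Single collagens scattered widely around their background. Of the 44 genes, 17 (38.6%) were over their own expectation in no DKO library, 8 in 1, 12 in 2 and 7 (15.9%) in all 3. Of 3201 silent genes at least as long as the shortest collagen (3095 bases), 59.8% were over in none and 12.3% in all 3. More collagens than such genes had any read, 88.6%, 93.2% and 95.5% against 50.1%, 51.5% and 71.8% in DKO replicates 1, 2 and 3. The median ratio of observed to expected reads was 0.742, 0.629 and 0.808 for collagens and 0.043, 0.126 and 0.300 for these silent genes. These sets are unlike. Only 17 of the 44 collagens had at most 10 Control counts, and length was matched only at its minimum. Of those 17 collagens, 16, 17 and 16 had a read in DKO replicates 1, 2 and 3. Across the 44 genes, DKO reads ranked with Control reads at Spearman's rho of -0.12, 0.017 and 0.18, and with exonic length at 0.069, 0.23 and 0.29, points that share a library and are given as a description.

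**Figure D4:**
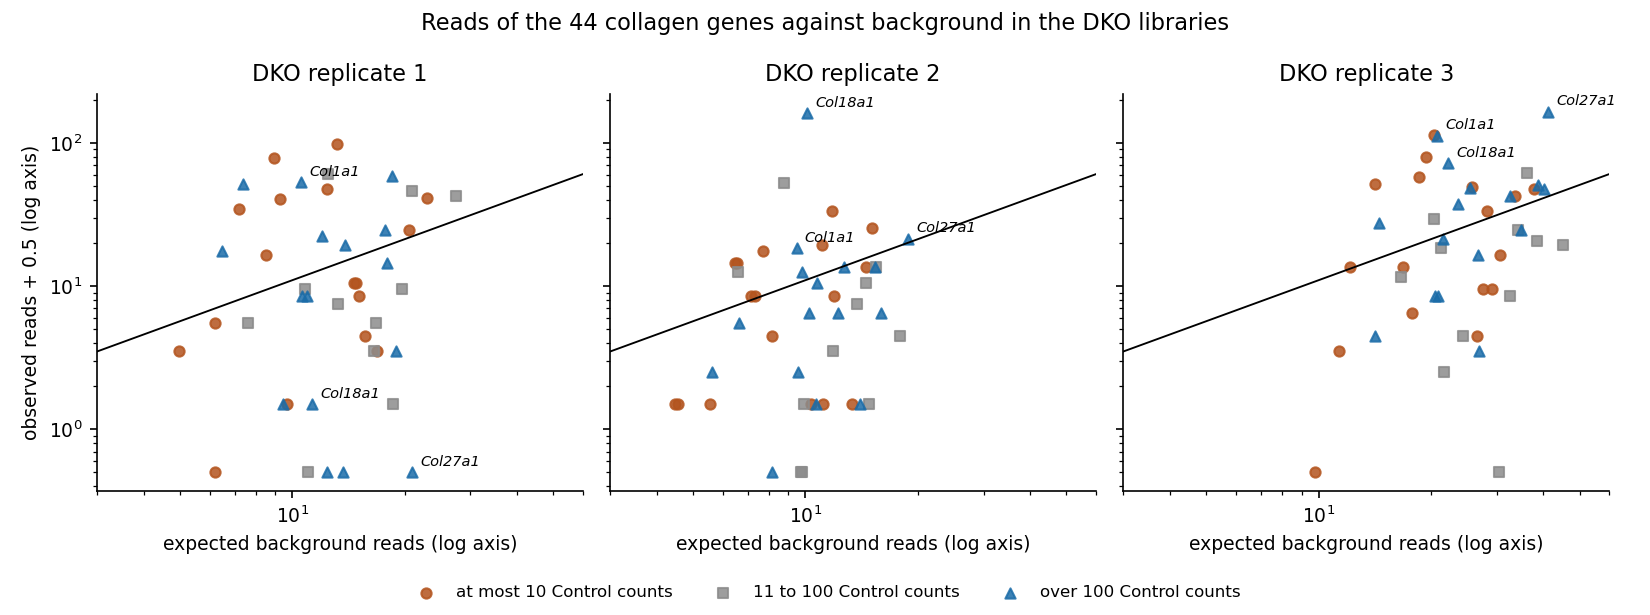
Observed reads plus 0.5 against expected background reads (both log axes) for the 44 collagen genes in each DKO library, with symbols by summed Control counts and a line at equality. Genes silent in Control lie on both sides of the line together with genes detected there, and Col18a1 changes place between the panels.

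The 7 genes over their background in every DKO library were Col1a1, Col8a1, Col8a2, Col11a1, Col17a1, Col23a1 and Col26a1. Col1a1, the main chain of collagen I (chr11:94936224-94953042), had 53, 18 and 112 reads in DKO against 10.5, 9.46 and 20.7 expected from background, and 198, 93 and 70 reads in the far deeper Control libraries. Col17a1, the hemidesmosome collagen of stratified epithelium, had 78, 17 and 79 reads in DKO against 8.92, 7.70 and 19.4 expected, and 2, 1 and 2 reads in Control. Col26a1, a collagen first found in testis and ovary, had 97, 33 and 49 reads in DKO against 13.1, 11.8 and 25.8 expected, and 1, 0 and 0 in Control. All 3 genes were above background in every DKO library, in different proportions from library to library.

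Col8a1 and Col8a2, the chains of collagen VIII, had 60, 52 and 29 and 34, 14 and 51 reads in DKO replicates 1, 2 and 3, against 5, 12 and 3 and 1, 0 and 0 in Control. Col11a1, a minor fibrillar chain of cartilage, had 41, 25 and 47 reads in DKO against 22.9, 15.0 and 37.7 expected from background, a narrow margin, and 0, 2 and 0 in Control. Col23a1, a transmembrane collagen, had 16, 8 and 57 reads in DKO against 8.51, 7.34 and 18.5 expected, and 1, 0 and 1 in Control. The 95th percentile of silent genes of like GC content, which 5% of those genes exceed by construction, was passed by 5, 2 and 2 collagens in DKO replicates 1, 2 and 3. These were Col1a1 and Col8a1 in 2 libraries each, and Col13a1, Col17a1, Col18a1, Col19a1 and Col26a1 in 1 each.

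Of the well-counted collagens of Control liver, 4 had no read in at least 1 DKO library. Col27a1 had 0, 21 and 165 reads in DKO against 20.9, 18.8 and 41.1 expected from background, and 750, 1014 and 1005 reads in Control. The 3 DKO libraries thus stood at 0, near background and well over it, and the log2 fold change of -0.24 (SE 1.24, edgeR adjusted p = 0.882) averages over these. Col6a2 had 0, 1 and 3 reads in DKO against 12.4, 10.7 and 26.9 expected, and 136, 46 and 46 in Control. Col5a1 had 0, 6 and 16 reads in DKO, and Col15a1 1, 0 and 8, each below the background of every DKO library, against 213, 97 and 74 and 23, 91 and 52 in Control.

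The edgeR test called 24 collagens higher and 1 lower in DKO at an adjusted p under 0.05 over all genes. Of the 44 genes, 40 passed the filter on low counts, and Col6a6, Col9a2, Col10a1 and Col11a2 did not. Of all 15561 genes tested, 31.3% were called higher and 12.8% lower. Normalised CPM did not overlap between the groups for 24 collagens that were above Control in DKO (34.0% of all genes) and for 5 that were below (36.4% of all genes), namely Col18a1, Col3a1, Col4a2, Col5a3 and Col6a2. For Col4a2 and Col5a3 this rests on the normalisation. Unscaled levels of Col4a2 were 3.90, 0.576 and 0.811 FPKM in DKO against 4.19, 2.99 and 3.25 FPKM in Control, and those of Col5a3 were 3.79, 3.36 and 2.07 FPKM in DKO against 3.79, 3.75 and 2.75 FPKM in Control.

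The calls followed the depth of reads in Control. Of the 17 collagens with at most 10 Control counts, 15 were tested and all 15 were called higher, as were 100% of the 2792 tested genes in that class, which pass the filter through their DKO reads alone. Of the 11 collagens with 11 to 100 Control counts, 9 were tested and 6 called higher (66.5% of all such genes) and none lower (2.28%). The 6 were Col4a3, Col4a4, Col7a1, Col8a1, Col12a1 and Col20a1, and Col4a5, Col6a5 and Col16a1 did not pass. Col4a4 had 46, 13 and 20 reads in DKO against 9, 6 and 3 in Control (log2 fold change 5.98, edgeR adjusted p = 0.000747). Its expected background was 21.0, 15.5 and 38.5 reads, above its counts in DKO replicates 2 and 3. Col12a1, a FACIT collagen of dense connective tissue, had 42, 4 and 19 reads in DKO and 30, 43 and 22 in Control, in libraries many times deeper. Its expected background was 27.4, 18.0 and 45.1 reads, above its counts in DKO replicates 2 and 3. With background subtracted Col12a1 was not called (log2 fold change 1.41, edgeR adjusted p = 0.394). Of the 16 with over 100 Control counts, 3 were called higher (7.58% of all such genes) and 1 lower (17.9%). The median log2 fold change of the tested collagens was 8.72, 2.89 and -0.33 in these 3 classes, beside 8.82, 3.53 and -1.19 for all tested genes of the class. With any 1 Control library left out, 15 collagens in place of 24 were called higher, of 31 or 32 that then passed the filter in place of 40, and 29.4% to 30.8% of all tested genes were called higher. The first class says nothing about collagens in particular, since every tested gene in it was called.

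**Figure D5:**
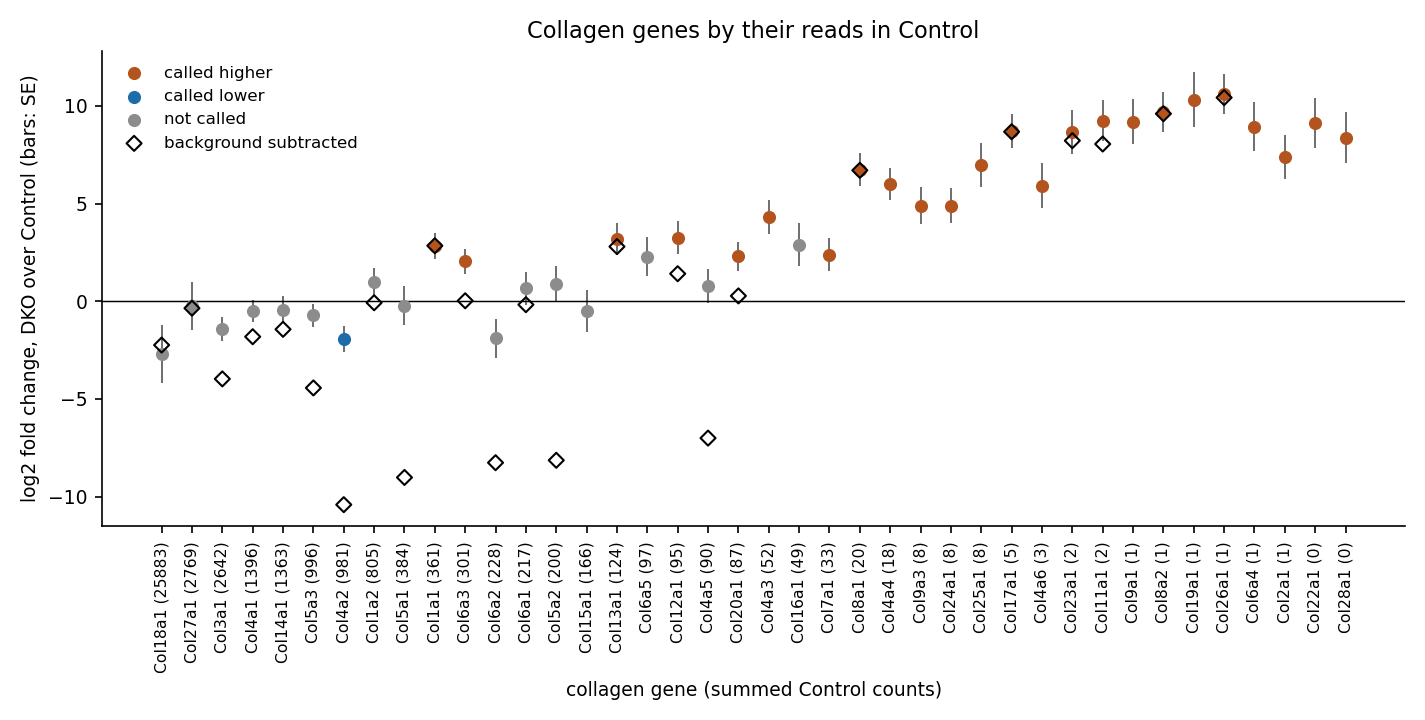
Log2 fold change (DKO over Control, bars are SE) of the 40 tested collagens, ordered by summed Control counts in brackets, with open diamonds for the fit after subtraction of background from DKO counts. Fitted values grow as Control counts shrink and, at 0 to 3 Control counts, depend on the prior count of the fit.

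The 3 well-counted collagens called higher were Col1a1, Col6a3 and Col13a1. Normalised CPM of Col1a1 averaged 73.2 ± 45.4 in DKO and 10.3 ± 4.22 in Control, a log2 fold change of 2.83 (SE 0.68, edgeR adjusted p = 0.00807), higher in all 3 DKO libraries than in any Control library. Without Control replicate 2 or 3 the edgeR adjusted p was 0.0522 or 0.0557. Col13a1, a transmembrane collagen, had 51, 5 and 27 reads in DKO and 44, 31 and 49 in Control, a log2 fold change of 3.19 (SE 0.81, edgeR adjusted p = 0.0105). Its expected background was 7.40, 6.64 and 14.5 reads, above the count of DKO replicate 2, and with background subtracted the log2 fold change was 2.80 (adjusted p = 0.151) and not called. Col6a3, the long chain of collagen VI, had 24, 13 and 50 reads in DKO against 17.8, 15.3 and 38.7 expected from background, and its log2 fold change of 2.05 (SE 0.63, edgeR adjusted p = 0.0255) was 0.027 (adjusted p = 0.985) after background was subtracted.

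Col1a2 did not follow Col1a1 past the threshold. It had 58, 6 and 47 reads in DKO against 18.4, 15.9 and 40.2 expected from background, which put DKO replicate 2 below it, and 425, 227 and 153 reads in Control. Its log2 fold change was 0.98 (SE 0.72, edgeR adjusted p = 0.275), and the difference between the Col1a1 and Col1a2 changes was not tested. Col3a1, highest of the fibrillar genes in Control, had 14, 13 and 42 reads in DKO against 18.0, 12.7 and 32.6 expected, and 1303, 666 and 673 in Control. Its log2 fold change of -1.42 (SE 0.60, edgeR adjusted p = 0.0817) fell short of the threshold. It passed as lower with DESeq2 (adjusted p = 0.00368), in edgeR with DESeq2 size factors (adjusted p = 0.0406), without a filter (0.0319) and without DKO replicate 1 (0.0384) or DKO replicate 3 (0.0469).

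Col4a2 was the one collagen called lower. It had 8, 2 and 8 reads in DKO, below the background of 10.6, 9.54 and 20.9 in each library, against 440, 276 and 265 in Control. Normalised CPM averaged 7.43 ± 3.54 in DKO and 28.8 ± 4.34 in Control, a log2 fold change of -1.92 (SE 0.65, edgeR adjusted p = 0.0378). Its head-to-head partner Col4a1 had 22, 10 and 37 reads in DKO and 669, 384 and 343 in Control, with a log2 fold change of -0.50 (SE 0.56, edgeR adjusted p = 0.471). The Col4a2 call was lost when any 1 Control library or DKO replicate 3 was left out and under 3 other settings, with edgeR adjusted p between 0.105 and 0.303. On the scale of abundant liver transcripts its log2 fold change turned to 4.0, below the median of 4.68 over all tested genes on that scale.

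The remaining well-counted members did not pass the threshold in edgeR. Col14a1 had 19, 6 and 48 reads in DKO and 738, 313 and 312 in Control, and averaged 28.8 ± 21.2 normalised CPM in DKO and 39.1 ± 15.1 in Control (adjusted p = 0.618). Col5a3 had 8, 12 and 21 reads in DKO against 409, 356 and 231 in Control, Col6a1 had 17, 2 and 4 against 108, 70 and 39, and Col5a2 had 3, 1 and 24 against 87, 43 and 70. The DKO reads of Col6a1 came mostly from replicate 1 and those of Col5a2 from replicate 3. The log2 fold change was -0.71 (SE 0.59, adjusted p = 0.330) for Col5a3, -1.90 (SE 1.00, adjusted p = 0.141) for Col6a2 and 0.67 (SE 0.85, adjusted p = 0.527) for Col6a1. Col5a1, Col5a2 and Col15a1 had log2 fold changes of -0.24, 0.87 and -0.50 and adjusted p from 0.449 to 0.854. With SE of this size, these values do not show equal levels.

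Among genes with at most 3 Control counts, the summed reads are given as a ratio of DKO to Control, scaled by the TMM-normalised library sizes, which does not depend on the prior count of the fit. For Col26a1 the ratio was 2633 (95% counting interval 466 to 104555), from 179 reads in DKO and 1 in Control. For Col19a1, a FACIT collagen known from muscle and brain, it was 2412 (427 to 95841), with 47, 4 and 113 reads in DKO and 1, 0 and 0 in Control. Col9a1, of cartilage collagen IX, had 40, 14 and 13 reads in DKO against 0, 1 and 0 in Control, a ratio of 985 (171 to 39494). Col6a4, an alternative chain of collagen VI, had 4, 19 and 33 reads in DKO against 1, 0 and 0 in Control, a ratio of 824 (142 to 33104). Summed over DKO, its 56 reads were 1.02 times the 54.98 expected from background, and DKO replicate 1 lay below its 15.6. Col19a1 in DKO replicate 2 (8.12 expected) and Col9a1 in DKO replicate 3 (16.8 expected) were also below background. Col6a4, Col19a1 and Col9a1 were each over background in 2 DKO libraries. The DKO library with the most reads differed from gene to gene, which was replicate 3 for Col19a1 and Col6a4 and replicate 1 for Col9a1 and Col26a1. Col2a1, the main collagen of cartilage, had 10, 1 and 9 reads in DKO, below background in each library, against 1, 0 and 0 in Control, and a ratio of 294 (47.0 to 12192). Col22a1 and Col28a1, at 0 in Control, had 27 and 15 summed reads in DKO, below the 59.3 and 34.6 expected from background. With Control set to 3 counts in sum, a floor chosen for 0 reads, the ratios were 132 and 73.5 on the same TMM-normalised scale. The intervals cover counting error only, and the floors only that of Control.

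A call of higher did not require reads over background. Of the 24 called collagens, 5 were over their expected background in no DKO library: Col2a1, Col4a6, Col7a1, Col22a1 and Col24a1. After subtraction of expected background from DKO counts, 24 collagens were tested. Then 7 were called higher (17.3% of all 13335 genes tested in that fit), the same 7 genes that were over background in every DKO library, a choice that used the same reads. Then 6 were called lower (20.7% of all genes), namely Col4a2, Col4a5, Col5a1, Col5a2, Col5a3 and Col6a2, of which Col4a2 was also called before subtraction. Only DKO counts were reduced, and counts below their expectation were set to 0. Col4a2, Col4a5, Col5a1, Col5a2 and Col6a2, over background in no DKO library, thus entered that fit with 0 reads in DKO. Col5a3 was over background in DKO replicate 2 alone. These lower calls therefore follow from the subtraction and are no separate result.

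The genes that fold, process and bind collagens are described by counts, to be read beside the same 31.3% higher and 12.8% lower of all tested genes. The share called higher was larger among genes with few Control counts. It was 100% of tested genes with at most 10 Control counts, a class that includes P4ha3, Adamts3, Mmp8, Itga2 and Itga11. It was 66.5% at 11 to 100 Control counts, a class that includes P3h4. Of 15 tested genes for folding and modification, 4 were called higher and none lower, with a median log2 fold change of -0.45. P3h4, a partner of prolyl 3-hydroxylases, had 21, 22 and 17 reads in DKO against 14, 8 and 7 in Control, a log2 fold change of 4.99 (edgeR adjusted p = 0.000783). P4ha3, a prolyl 4-hydroxylase subunit, had 8, 3 and 29 reads in DKO and none in Control. P4hb, the abundant subunit of that enzyme, had 12, 372 and 137 reads in DKO against 18773, 15991 and 13567 in Control and, like Col18a1, was highest in DKO replicate 2.

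Of 9 tested genes for processing and cross-linking, 2 were higher and 1 lower. The lower gene was Bmp1, the procollagen C-proteinase, with 1, 24 and 9 reads in DKO against 1783, 1232 and 1063 in Control, a log2 fold change of -2.82 (edgeR adjusted p = 0.0408). Adamts3, a procollagen N-proteinase, had 34, 9 and 7 reads in DKO against 8, 1 and 0 in Control (log2 fold change 6.36, edgeR adjusted p = 0.00269). Of 9 tested degradation genes, 2 were higher and 1 lower. The lower gene was the membrane metalloproteinase Mmp15, with 0, 10 and 3 reads in DKO against 950, 774 and 688 in Control (log2 fold change -3.50, edgeR adjusted p = 0.0179).

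Of 8 tested collagen receptors 3 were called higher. Itga11, the integrin chain of fibroblasts that binds fibrillar collagen, had 86, 21 and 38 reads in DKO against 7.61, 6.57 and 16.6 expected from background, and 5, 4 and 0 in Control (log2 fold change 7.80, edgeR adjusted p = 0.000737). Of 12 tested matrix partners 1 was called higher, the laminin chain Lamb1, at 57, 25 and 50 reads in DKO and 178, 94 and 66 in Control (log2 fold change 2.55, edgeR adjusted p = 0.00596). Fmod, the fibril-binding proteoglycan fibromodulin, was at 0 in all DKO libraries against 42, 10 and 11 reads in Control.

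Markers of the cell types known to make collagens did not move one way. Of 10 stellate markers, all tested, 1 was called higher (Ngfr) and 2 lower (Ecm1 and Hand2), and their summed level was 208 to 601 CPM in DKO and 388 to 502 CPM in Control. Their reads in DKO replicates 1, 2 and 3 were 186, 178 and 310, against 104, 78.5 and 193 expected from background alone. Hand2, a defining stellate transcription factor, had 0, 0 and 1 reads in DKO against 108, 69 and 38 in Control. Of 6 portal fibroblast markers, 5 were tested, 2 were higher and 1 lower, with Entpd2 at 0 in all DKO libraries, and the sum was 48.3 to 116 CPM in DKO and 8.03 to 15.2 CPM in Control. The portal fibroblast markers had 36, 31 and 72 reads in DKO replicates 1, 2 and 3, below the 48.6, 40.3 and 92.5 expected from background. The 7 sinusoidal endothelial markers gave 1 higher and 1 lower call, and summed to 169 to 759 CPM in DKO and 211 to 390 CPM in Control. Their median log2 fold change was -1.41, and their DKO reads were 235, 129 and 252 against 80.2, 60.1 and 149 expected from background. In DKO replicate 1, Pecam1 gave 182 of their 235 reads. There Stab2, Lyve1 and Kdr had 22, 24 and 7 reads, and Stab1, Clec4g and Fcgr2b had 0. The 6 Kupffer cell markers gave no call and summed to 29.1 to 110 CPM in DKO and 160 to 219 CPM in Control. They had 9, 58 and 108 reads in DKO against 22.4, 15.6 and 38.5 expected from background.

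Markers of cartilage and stratified epithelium, tissues foreign to liver, also had reads in DKO. All 3 tested of 5 cartilage markers were called higher, with sums of 73.8 to 213 CPM in DKO and 0 to 1.08 CPM in Control, beside Col2a1, Col9a1 and Col11a1. These 3 genes had 11 or fewer Control counts, and of all tested genes with at most 10, 100% were called higher. Matn3 had 23, 1 and 22 reads in DKO against 4.79, 3.38 and 7.82 expected from background. Of 5 stratified epithelium markers 1 was tested and called higher (Krt10), Lor was at 0 in all DKO libraries, and Krt5 and Krt14 had reads in DKO replicate 3 alone, at 4 and 2, beside the 78, 17 and 79 reads of Col17a1. Krt10 and Lor also had reads in Control liver. Krt10 had 42, 23 and 11 reads in DKO and 38, 40 and 55 in Control, and Lor had 8, 18 and 1 in Control. Among markers of liver cells, the 5 bile duct markers gave 3 higher calls and 1 lower, with sums of 141 to 326 CPM in DKO and 62.0 to 82.9 CPM in Control. Their median log2 fold change was 2.69. Sox9 gave 78 of their 101 reads in DKO replicate 1. Spp1 had 9, 24 and 13 reads in DKO against 1117, 810 and 745 in Control. The 7 hepatocyte markers gave no call, with a median log2 fold change of -2.94 and sums of 1572 to 40949 CPM in DKO and 87226 to 100705 CPM in Control. The part of these cell types in the collagen calls was not tested.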

How the data were processed

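The authors deposited 1 table of raw counts per library, with a row for each Ensembl gene. The submitters' processing notes name STAR, HTSeq and the build mm10. The sources used here do not give versions, the strand setting or the annotation. Per the labels' protocols, liver RNA was column-purified and a company made and sequenced the libraries. The 5 rows that name no gene held 95.3% to 97.3% of reads in DKO and 65.1% to 66.7% in Control, and were left out of all totals and fits. Without strand information, reads of a collagen and an overlapping antisense gene cannot be told apart.

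Collagens were found by symbol in GENCODE M21, which also gave exonic lengths (union of exons) and GC content. The collagens and the other gene lists were chosen with earlier results of these data known. FPKM and CPM were computed from the deposited counts. The main test was edgeR 4.0.16 in R 4.3.3 (quasi-likelihood, robust, TMM, filterByExpr, Benjamini-Hochberg adjusted p under 0.05 over all 15561 tested genes, two-sided, no covariates). The SE is the absolute log2 fold change divided by the square root of the F statistic.

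Background reads came from 8583 protein-coding genes with at most 10 summed Control counts, as summed reads over summed exonic length in 10 bins of GC content. The scale of abundant liver transcripts was the median ratio to the Control mean of 163 nuclear genes with over 30000 Control counts. Values in every library are given for a rule-based set of 26 members (the 8 highest in Control, 10 smallest adjusted p, 3 highest over background, 16 fixed genes, with overlap). Other members named, among them Col13a1, were chosen after their values were seen, and other lists name up to 3 genes by adjusted p. P4hb, Fmod, Krt5, Krt14, Lor, Stab1, Stab2, Lyve1, Kdr and Spp1 were named after their values were seen. Alternatives were DESeq2 1.42.0, limma-voom (limma 3.58.1), other scalings, filters and thresholds, background subtraction, a replicate block, each library left out and other lengths and background rates. The edgeR fit and the background rates were run on simulated data simpler than these. Those for edgeR had the spread of the Control libraries alone and no background, and those for background had the same rate per kb for all genes. They check the code and do not show how either performs at the spread of the DKO libraries. Promoter windows came from RefSeq on GRCm38.p6. Depth sets the precision: the DKO libraries hold 309731 to 1491237 gene-assigned reads, and intervals and floors cover counting error only. No 2 libraries of a group held identical values.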

Additional observations from a re-analysis of the deposited data

Results flagged for a closer look

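Reads that aligned to the genome but were assigned to no annotated feature, which enter no comparison above, took a larger share in DKO. Whether they lay between genes, in introns or on the opposite strand of a gene cannot be told from the counts. The lowest share among the DKO libraries was 61.0% of all reads (DKO replicate 3), against a highest share of 40.6% in Control (Control replicate 1). The DKO shares were 73.7%, 65.3% and 61.0%, against 40.6%, 38.4% and 37.8% in Control.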

How the results depend on the processing

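The count of 24 collagens called higher in DKO was 19 to 36 under the other scalings and filters, DESeq2, limma-voom, an adjusted p of 0.01 and the replicate block. The share of all tested genes called higher moved too, with 26.1% beside the 19 (adjusted p of 0.01) and 62.5% beside the 36 (abundant-gene scale). The collagen count was 7 with background subtracted (17.3% of all genes). It was 15 to 23 with 1 library left out (27.3% to 33.5% of all genes), at 15 with any 1 Control library left out. The count of 1 called lower was 0 at an adjusted p of 0.01, without normalisation, with upper-quartile scaling, on the abundant-gene scale and with the replicate block, 2 with DESeq2 size factors, 3 without a filter and with DESeq2, 6 with background subtracted and 0 to 3 with 1 library left out. Over all genes, 1992 were called lower in the main fit, and between 85 (abundant-gene scale) and 4776 (DESeq2) under the other settings. The calls of Col1a1 and Col6a3 were lost with single Control libraries left out. The labels state no pairing of libraries. Deviations from the group mean correlated at 0.12, 0.073 and -0.020 between libraries of the same number. These values cannot decide on pairing, since the DKO deviations also carry background and low depth. With the replicate block edgeR called 20 collagens higher (26.6% of all genes) and 0 lower.

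The abundant-gene scale put the median log2 fold change over all tested genes at 4.68, against -0.085 with TMM. On it 9 negative log2 fold changes turned positive: Col14a1 5.17, Col15a1 3.69, Col27a1 3.52, Col3a1 3.81, Col4a1 5.25, Col4a2 4.0, Col5a1 3.41, Col5a3 4.30 and Col6a2 1.36, most of them below that median. Without normalisation Col14a1 was at 0.18 and Col4a1 at 0.25. With background subtracted Col1a2 was at -0.074, Col5a2 at -8.14 and Col6a1 at -0.17. The Col5a2 value rests on DKO counts that the subtraction set to 0. With 1 library left out, the sign turned for Col27a1 (-2.18 to 0.21), Col5a1 (-1.01 to 0.24), Col5a2 (-0.64 to 1.18) and Col6a1 (-0.80 to 1.57), without DKO replicate 1 for Col27a1, Col5a1 and Col6a1, without DKO replicate 3 for Col5a2 and without Control replicate 1 for Col5a1. The causes were not tested.

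Per base of the longest transcript, Col18a1 stood at 109 FPKM in Control and kept the first rank. The ratio of observed to background reads was 1.91, 1.63 and 1.71 in DKO replicates 1, 2 and 3 with 1 rate for all silent genes, and 1.63, 1.27 and 1.40 with silent genes at 0 Control counts. A median-based rate gave 5.51 in DKO replicate 3 and no value in replicates 1 and 2, where the median rate is 0. Summed over DKO the ratio was 1.31, and 1.24 to 1.35 with 1 library left out, an alternative chosen after seeing the data. Few gene reads in DKO limit what can be seen there.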
